A study of Rattus norvegicus with 15 samples.

Results

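The genes described here encode the protein parts of the mitochondrial ribosome, taken as every gene whose symbol begins with Mrpl or Mrps in the deposited liver table. The rule found 76 of the 26403 genes used, of which 47 carried an Mrpl symbol and 29 an Mrps symbol. The 15 RNA-seq libraries came from Wistar rat livers that were flash frozen after 24 hours of refeeding, the first day on which the rats regained lost weight. Of the 3 groups of 5 libraries, the sedentary and the exercised rats ate ad libitum, and the exercised rats had run on a treadmill through weight loss and its maintenance. The third group, here called gap-matched, was sedentary and received an energy gap-matched diet, a term that the labels do not define. All groups shared the strain, the tissue, the earlier weight loss and the length of refeeding, while sex and age were not given in the labels used here. Whether every library stands for its own animal is not stated in the labels, and p-values therefore cover the spread among these libraries alone, which may be technical.

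The mitochondrial ribosome sits in the matrix, attached to the inner membrane, and makes the few respiratory chain and ATP synthase subunits that mitochondrial DNA still encodes. Its RNAs come from mitochondrial DNA, but its proteins are encoded in the nucleus, made in the cytosol and imported. Many of them descend from bacterial ribosomal proteins, and others exist only in mitochondria. The small subunit reads the messenger RNA and the large subunit forms the peptide bond. Symbols do not follow the subunits in every case: Mrps30 and Mrps18a belong to the large subunit, and Mrps36 is now known as a part of the oxoglutarate dehydrogenase complex. By place, 49 members were counted in the large subunit and 26 in the small subunit, with Mrps36 kept apart.

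The promoter windows of the members were searched for motif letters, none of which stood in all of them. Windows of 300 bases, 250 before the transcript start and 50 from it, were found in RefSeq (GRCr8) for 61 of the 76 members. The letters of 3 motifs were sought on both strands and are printed in capitals: CCGGAAG, bound by GABP and other ETS factors, GCGCA followed by any base and GCGC, bound by NRF1, and AAGATGGC, bound by YY1. These are factors known for binding near nuclear genes of mitochondria. Mrps10 and Mrps26 are shown because both passed a test below and hold 2 of the motifs each, Mrps9 because it passed and holds none, and Mrpl46 because it is the neighbour of Mrps11. The Mrps10 window lies at chr9:21122404-21122703 on the minus strand, Mrps26 at chr3:138222074-138222373 on the plus strand, Mrpl46 at chr1:142116981-142117280 on the minus strand, and Mrps9 at chr9:52605428-52605727 on the plus strand.
Mrps10: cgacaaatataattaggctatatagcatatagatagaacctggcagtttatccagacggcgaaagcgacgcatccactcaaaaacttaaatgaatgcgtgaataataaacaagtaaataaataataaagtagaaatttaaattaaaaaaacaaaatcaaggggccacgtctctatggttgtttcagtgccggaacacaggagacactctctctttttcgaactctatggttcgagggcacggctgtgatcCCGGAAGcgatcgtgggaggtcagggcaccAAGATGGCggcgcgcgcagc
Mrps26: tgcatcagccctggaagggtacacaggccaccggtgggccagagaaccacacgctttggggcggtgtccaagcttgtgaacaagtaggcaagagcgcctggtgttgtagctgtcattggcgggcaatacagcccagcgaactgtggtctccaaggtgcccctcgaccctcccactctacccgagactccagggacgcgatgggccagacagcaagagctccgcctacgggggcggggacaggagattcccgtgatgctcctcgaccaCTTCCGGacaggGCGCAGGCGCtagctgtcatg
Mrpl46: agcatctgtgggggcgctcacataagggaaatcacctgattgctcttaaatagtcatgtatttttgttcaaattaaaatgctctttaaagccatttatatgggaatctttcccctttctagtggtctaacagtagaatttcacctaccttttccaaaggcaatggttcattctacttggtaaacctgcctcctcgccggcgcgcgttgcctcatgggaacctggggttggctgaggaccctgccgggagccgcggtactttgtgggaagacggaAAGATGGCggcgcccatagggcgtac
Mrps9: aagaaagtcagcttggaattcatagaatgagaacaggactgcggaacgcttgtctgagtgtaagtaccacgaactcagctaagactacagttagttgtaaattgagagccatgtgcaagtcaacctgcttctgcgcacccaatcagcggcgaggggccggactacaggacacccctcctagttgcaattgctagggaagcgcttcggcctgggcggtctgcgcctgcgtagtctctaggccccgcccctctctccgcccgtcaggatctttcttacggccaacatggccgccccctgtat

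Mrpl14 and Mrps21 had more than 1 window, and a gene was counted once when any of its windows held the letters. The YY1 letters were found for 15 of the 61 members with a window (24.6%). The shares were 6.11% of 7744 tested genes with a window and 3.62% of all 27457 RefSeq symbols with one. In 12 of the 15 members (80.0%) the letters lay on the gene's own strand within 50 bases of the start, as in Mrps10 and Mrpl46. The same held for 276 of 473 tested genes with the letters (58.4%). The ETS letters were found for 19 members (31.1%, against 19.3% and 9.63%), and the NRF1 letters for 9 (14.8%, against 11.1% and 4.82%). Other promoter elements were sought in the same way. CACGTG was found for 11.5% of the members with a window, against 10.1% and 7.08%. CCAAT was found for 42.6% against 39.2% and 39.6%, and TATAAA for 13.1% against 7.40% and 15.3%. At least 1 of the 3 marked motifs was present in 33 of the 61 members with a window, and Mrps18b was the member with all 3. The windows of Mrpl46 and Mrps11, which lie head to head, share 267 of their 300 bases. A match is a description of letters only, and where there is none, nothing follows about the factor.

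All 76 members were detected at a mean of at least 1 FPKM, the threshold for testing, so none was left out. FPKM divides the fragments of a gene by its length and the size of the library, so levels of different genes can be compared per length. Mean levels over the 15 libraries ran from 4.40 to 198 FPKM with a median of 37.3. The large subunit had a median of 38.2 FPKM (4.40 to 198) and the small subunit one of 30.4 (5.69 to 159.7). The most abundant transcripts were Mrpl54 at 198 FPKM, Mrpl15 at 162, MRPS21 at 159.7, Mrps16 at 109.7 and Mrpl27 at 98.9. MRPS21 and Mrps16 are small-subunit homologues of bacterial S21 and S16, and Mrpl15 and Mrpl27 are homologues of bacterial L15 and L27, the latter placed near the peptide bond-forming centre in bacteria. The least abundant were Mrpl47 at 6.49 FPKM, Mrpl1 at 6.45, Mrpl40 at 6.41, Mrps28 at 5.69 and Mrpl36 at 4.40.

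The order of the members was nearly the same in each group, with a Spearman correlation across the 76 members of 0.987 to 0.990 between group means, given as a description. Neighbours in that order were not separated: Mrpl54 ranged from 137 to 279 FPKM over the libraries and Mrpl15 from 105 to 207. The spread within groups, as a coefficient of variation, had a median of 13.5%. It was smallest for mrpl11, the homologue of the bacterial L11 stalk-base protein, at 4.90%. It was largest for Mrpl36, at 77.3%. Mrpl36 stood between 1.201 and 4.37 FPKM in the sedentary libraries and reached 11.1 in exercised library 4, 12.8 in gap-matched library 1 and 10.3 in gap-matched library 4. Those 3 libraries were the only ones above 5 FPKM for this gene.

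**Figure D1:**
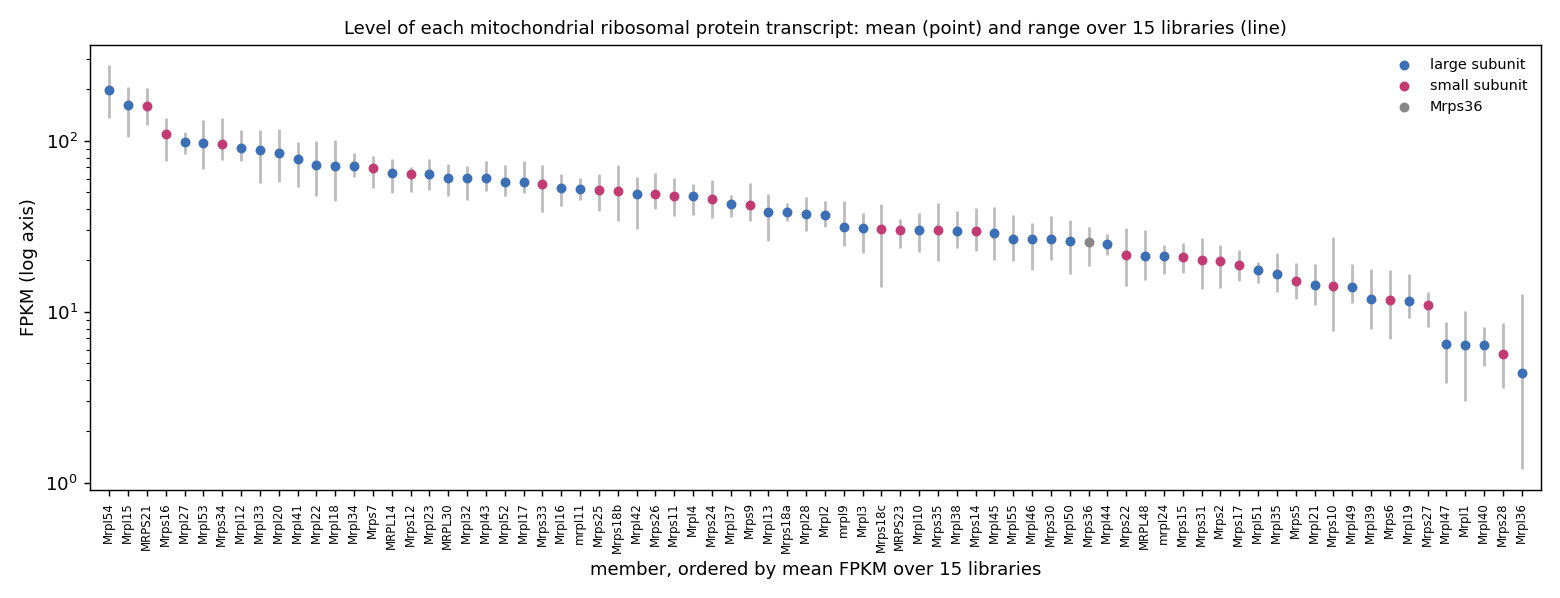
Mean FPKM over the 15 libraries (points, log axis) and the lowest and highest library (lines) for the 76 members, ordered by mean and coloured by subunit. The means fall from 198 FPKM for Mrpl54 to 4.40 FPKM for Mrpl36, with both subunits spread through the order.

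The libraries differed in relative depth from 0.678 to 1, estimated from the steps of low values with sedentary library 1 set to 1, and read totals are unknown. The lowest depth was that of sedentary library 5, which also had the highest summed level of the members, at 4105 FPKM. The number of genes at 1 FPKM or more per library ranged from 11008 to 11365. Within groups the libraries correlated at 0.967 to 0.984 over all tested genes. Hepatocyte markers had summed levels of 47126 to 59966 FPKM in the sedentary libraries and all 8 listed passed the threshold for testing. The columns were given to groups by their names, which no measured value checks.

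Most members had a lower mean in the exercised than in the sedentary livers, and the transcripts that passed the test all fell. The difference on the log2(FPKM + 1) scale was below 0 for 70 of 76 members (92.1%, against 48.7% of all tested genes), with a median of −0.17 beside 0.01 over all 11216 tested genes. In the limma fit over all genes, 7 members fell at an adjusted p under 0.05 (9.21%) and 0 rose, while 5.78% of all tested genes passed (3.26% lower and 2.51% higher). At an unadjusted p under 0.05, 23 members (30.3%) were lower, against 10.6% of tested genes, and 0 were higher, against 10.4%. In bulk tissue, fewer cells of a type and less RNA per cell cannot be told apart. The members vary together between libraries, so these counts are not independent, and each count is a description of the list.

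Small-subunit transcripts made up 6 of the 7 that fell. The median difference of the small subunit was −0.24 with 26 of 26 below 0, and that of the large subunit was −0.15 with 43 of 49 below 0 and 1 passing. This contrast between the subunits was not tested. Members with a bacterial homologue had a median of −0.18 (5 of 48 passing), and mitochondria-specific members −0.17 (2 of 27). Groups within the large subunit were the stalk proteins, with a median of −0.10 over 5 members, the central protuberance, with −0.25 over 7, and the tunnel exit, with −0.18 over 8. In these 3 groups 0 members passed.

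**Figure D2:**
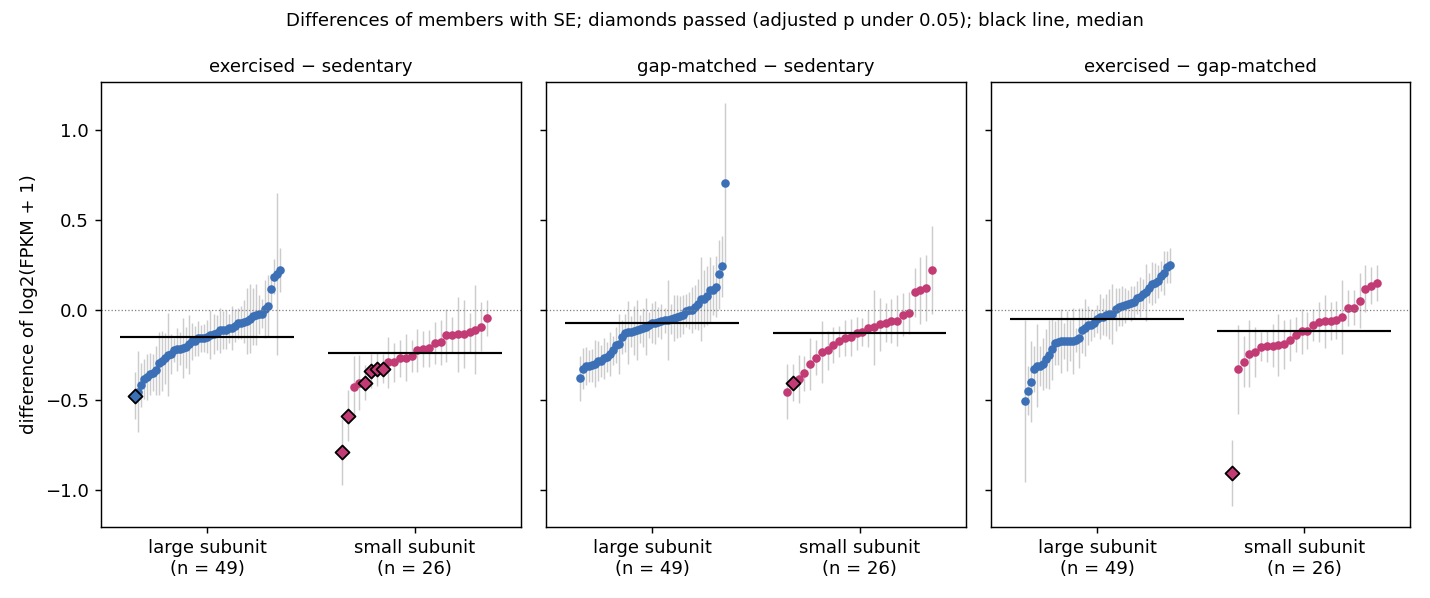
Difference of log2(FPKM + 1) for each member of the large subunit (49) and the small subunit (26), with its limma SE (lines), in the 3 comparisons. Diamonds mark members with an adjusted p under 0.05, and black lines mark the medians, which for exercised against sedentary were −0.15 and −0.24.

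**Figure D3:**
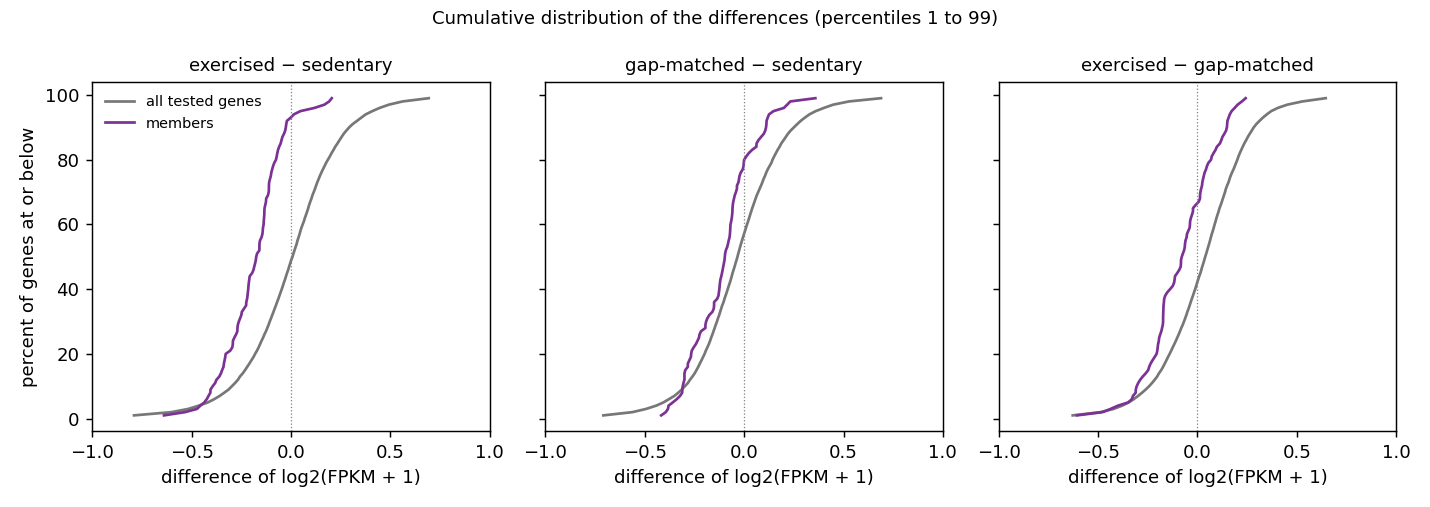
Percent of genes at or below each difference of log2(FPKM + 1), for the 76 members and for the 11216 tested genes, drawn from percentile 1 to 99. The members' line lies to the left of the line of all genes at the median of each panel, by most for exercised against sedentary (−0.17 beside 0.01).

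Mrps10 (ENSRNOG00000022609), the homologue of bacterial S10, had the lowest difference. It stood at 14.1, 13.99, 14.3, 19.3 and 17.5 FPKM in sedentary libraries 1 to 5 and at 8.24, 8.26, 11.7, 7.77 and 7.86 FPKM in exercised libraries 1 to 5. Every exercised library lay below every sedentary one, with library 3 the highest of the exercised group. The mean fell from 15.8 ± 2.41 to 8.76 ± 1.64 FPKM (SD, n = 5), a log2 difference of −0.79 ± 0.18 (SE; limma adjusted p = 0.0201). Leaving out sedentary library 5 ended the call (limma adjusted p = 0.0530), as did leaving out exercised library 1 (0.0505), and it was kept in the 8 other fits that left out 1 library of these groups. RefSeq names pseudogenes or similar genes after some members, 1 entry each for Mrps10 and Mrps11 and 2 for Mrpl15, with which reads could be shared. The effect of these entries on the values was not tested.

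Mrps9 (ENSRNOG00000016201), the homologue of bacterial S9, gave 43.7, 52.2, 46.4, 46.3 and 57.0 FPKM in the sedentary libraries and 34.2, 41.3, 38.9, 35.3 and 34.4 FPKM in the exercised ones. The groups did not overlap. The mean fell from 49.1 ± 5.39 to 36.8 ± 3.16 FPKM, by 0.40 ± 0.10 on the log2 scale (limma adjusted p = 0.0233). Mrps5 (ENSRNOG00000015192), the homologue of bacterial S5, gave 14.9, 19.3, 17.0, 16.3 and 16.5 FPKM in the sedentary and 12.2, 13.9, 14.2, 11.96 and 13.6 FPKM in the exercised libraries, again without overlap. Its log2 difference was −0.33 ± 0.08 (limma adjusted p = 0.0258). Both calls were kept in 6 of 10 fits without 1 library, and the adjusted p reached at most 0.0668 for Mrps9 and 0.0782 for Mrps5.

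Mrps22 (ENSRNOG00000047984), a mitochondria-specific protein of the small subunit in which human mutations cause mitochondrial disease, overlapped between the groups. It gave 27.9, 30.8, 19.3, 25.6 and 27.9 FPKM in the sedentary libraries and 14.1, 15.7, 17.3, 15.9 and 22.8 FPKM in the exercised ones, where library 5 lay above sedentary library 3. The mean fell from 26.3 ± 4.34 to 17.2 ± 3.34 FPKM, a log2 difference of −0.59 ± 0.14 (limma adjusted p = 0.0251), and the call was kept in 4 of 10 fits without 1 library (adjusted p up to 0.0731). Mrps26 (ENSRNOG00000021224), also specific to mitochondria, gave 52.3, 48.4, 64.9, 49.5 and 55.4 FPKM in the sedentary and 41.8, 43.9, 41.99, 40.2 and 45.0 FPKM in the exercised libraries. Its groups did not overlap, with means of 54.1 ± 6.61 and 42.6 ± 1.89 FPKM. The log2 difference was −0.33 ± 0.09 (limma adjusted p = 0.0414), kept in 3 of 10 fits without 1 library (adjusted p up to 0.0887).

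Mrpl15 (ENSRNOG00000008566), the homologue of bacterial L15, was the large-subunit member that fell. It gave 170.4, 186, 189.5, 207 and 203 FPKM in the sedentary libraries and 105, 116, 160.0, 136 and 179 FPKM in the exercised ones. Exercised library 5 lay above sedentary library 1, and the other exercised libraries lay below the whole sedentary group. The log2 difference was −0.48 ± 0.13 (limma adjusted p = 0.0440). Mrps11 (ENSRNOG00000018531), the homologue of bacterial S11, gave 55.0, 54.6, 60.3, 57.0 and 51.5 FPKM in the sedentary and 38.5, 44.3, 48.6, 36.2 and 53.5 FPKM in the exercised libraries, with exercised library 5 inside the sedentary range. Its log2 difference of −0.34 ± 0.10 passed narrowly (limma adjusted p = 0.0497). These 2 calls were each kept in 2 of 10 fits without 1 library, at adjusted p-values up to 0.107 for Mrpl15 and 0.122 for Mrps11.

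**Figure D4:**
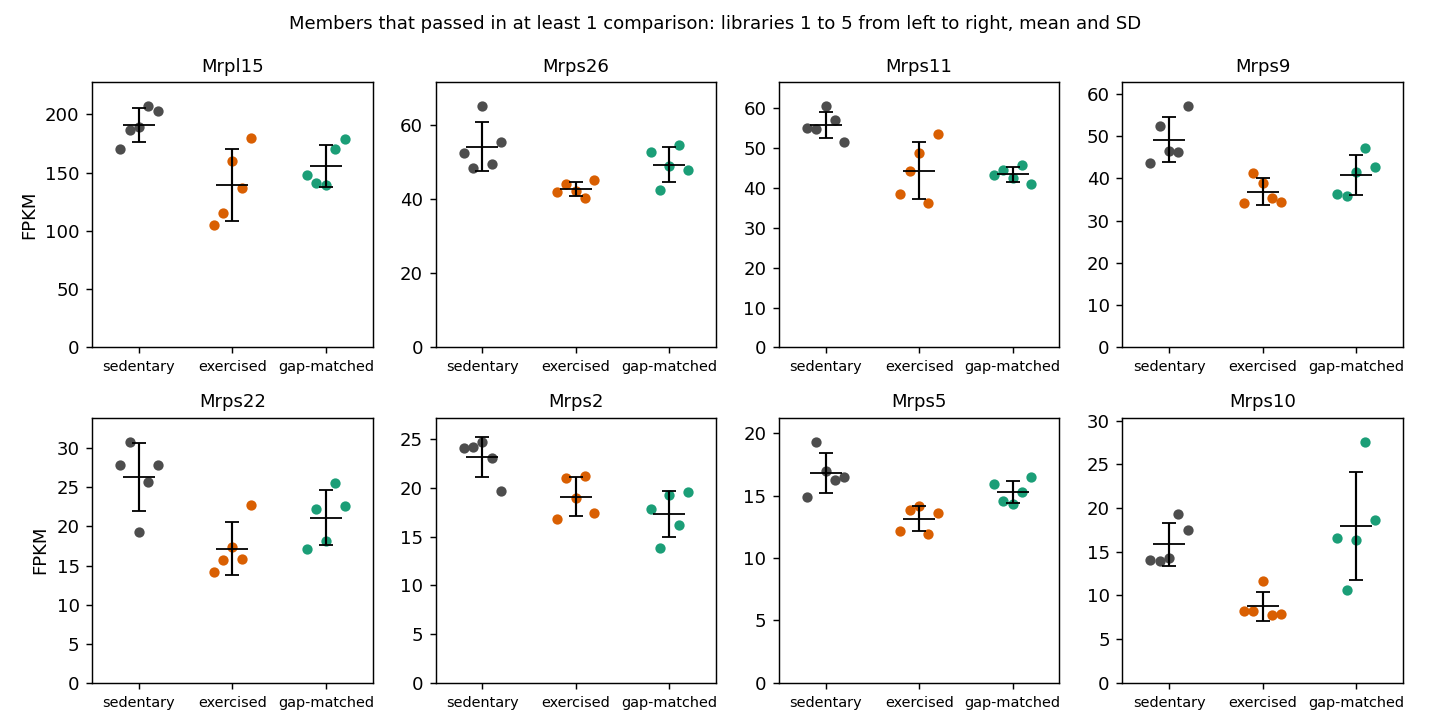
FPKM of the 8 members that passed in at least 1 comparison, with libraries 1 to 5 of each group from left to right and the mean and SD as bars. All 5 exercised libraries lie below all sedentary ones for Mrps26, Mrps9, Mrps5 and Mrps10, while Mrps11 and Mrps2 have their lowest mean in the gap-matched group.

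The number of members that passed depended on single libraries. It was 0 without sedentary library 5 or exercised library 1, 1 without exercised library 4, 2 without sedentary library 2, 3 without sedentary library 1 or exercised library 2, and 11 without exercised library 5. The median member difference was steadier, between −0.22 and −0.14 over all fits without 1 library. Across scalings to the same FPKM sum, to the median of ratios and by quantiles, 68 to 71 members were below 0 and 6 to 9 passed.

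Among members that did not pass, mrpl11 gave 57.0, 52.7, 60.5, 53.0 and 57.6 FPKM in the sedentary and 46.9, 45.3, 49.7, 46.7 and 50.8 FPKM in the exercised libraries. The groups did not overlap, and the log2 difference was −0.23 (limma adjusted p = 0.0610). Non-overlapping, lower exercised groups were seen for 6 members (7.89%, against 3.66% of tested genes), namely mrpl11, Mrps5, Mrps9, Mrps10, Mrps18a and Mrps26, and in the other direction for 0 members, against 3.15%. Mrpl45, which helps to anchor the ribosome to the inner membrane, went from 34.7 ± 3.904 to 25.9 ± 4.47 FPKM (log2 difference −0.42, limma adjusted p = 0.0610). Mrps30, in the large subunit despite its symbol, went from 31.0 ± 4.23 to 24.1 ± 3.031 FPKM (−0.35, limma adjusted p = 0.0641). Mrpl1, a homologue of the bacterial L1 stalk protein, differed by −0.46 with an adjusted p of 0.261 at a level of 7.31 ± 2.14 FPKM in the sedentary group.

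The highest differences belonged to mrpl9, Mrpl36, Mrpl28 and Mrpl34, all homologues of bacterial large-subunit proteins. The log2 difference was 0.22 for mrpl9 (limma adjusted p = 0.318), where the means were 29.3 ± 2.35 and 34.8 ± 7.12 FPKM. For Mrpl36 it was 0.20 (limma adjusted p = 0.854), and it was −0.18 without exercised library 4. Mrpl28 differed by 0.19 (limma adjusted p = 0.287) and Mrpl34 by 0.12 (0.455). The 3 paralogues of bacterial S18 gave −0.16 for Mrps18a (limma adjusted p = 0.237), −0.27 for Mrps18b (0.263) and −0.11 for Mrps18c (0.855). Mrpl12, a stalk protein also reported to bind the mitochondrial RNA polymerase, stood at 98.4 ± 12.6 and 92.6 ± 18.4 FPKM, and Mrpl44 at 25.3 ± 1.80 and 24.9 ± 1.05 FPKM. Mrps12, the homologue of bacterial S12, stood at 68.5 ± 1.495 and 62.4 ± 7.66 FPKM (limma adjusted p = 0.459). Mrps36 stood at 28.4 ± 2.86 and 25.8 ± 3.12 FPKM (limma adjusted p = 0.521).

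In the gap-matched livers, too, most members had a lower mean than in the sedentary ones, and 1 member passed. This comparison shares its sedentary libraries with the one above. The difference from the sedentary group was below 0 for 60 of 76 members (78.9%, against 57.2% of tested genes), with a median of −0.10 beside −0.03 over all tested genes. In the limma fit 1 member fell (1.32%) and 0 rose, while 3.05% of tested genes passed (2.23% lower and 0.820% higher). At an unadjusted p under 0.05 there were 17 members lower (22.4%, beside 1351 of the 11216 tested genes) and 0 higher (against 5.75%). Scaling to the same FPKM sum gave 65 members below 0 and 5 passing, with the median of all genes at −0.10, while the median of ratios gave 53 and 1 and quantiles 52 and 1.

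Mrps2 (ENSRNOG00000010164), the homologue of bacterial S2, was the member that fell. It gave 24.1, 24.2, 24.7, 23.1 and 19.7 FPKM in the sedentary libraries and 17.9, 13.8, 19.2, 16.2 and 19.6 FPKM in the gap-matched ones. Every gap-matched library lay below every sedentary one, though gap-matched library 5 and sedentary library 5 nearly met. The mean fell from 23.2 ± 2.02 to 17.3 ± 2.39 FPKM, a log2 difference of −0.40 ± 0.10 (limma adjusted p = 0.0443), kept in 3 of the 10 fits that left out 1 of these libraries (adjusted p up to 0.109). It ended without sedentary library 1, 2, 3 or 4 or gap-matched library 1, 2 or 4, and 0 members then passed. In the exercised group, where it gave 16.8, 21.0, 19.0, 21.2 and 17.4 FPKM, the difference was −0.27 (limma adjusted p = 0.140).

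Non-overlapping, lower gap-matched groups were seen for 8 members (10.5%, against 4.56% of tested genes) and non-overlapping higher ones for 0, against 1.47%. The 8 were Mrpl3, Mrpl37, Mrpl38, Mrpl40, Mrpl55, Mrps2, Mrps11 and Mrps25. Mrps11 gave 43.3, 44.4, 42.5, 45.8 and 40.9 FPKM in the gap-matched libraries, all below the sedentary range, with a log2 difference of −0.35 ± 0.10 (limma adjusted p = 0.0594). Mrpl3, the homologue of bacterial L3, stood at 33.9 ± 2.28 FPKM in the sedentary, 32.3 ± 2.69 in the exercised and 27.2 ± 3.10 in the gap-matched group. Its gap-matched difference was −0.31 (limma adjusted p = 0.0732). The lowest value was that of Mrps35, a mitochondria-specific small-subunit protein, at −0.46 (limma adjusted p = 0.124), with Mrps18b at −0.38 (0.131) and Mrpl45 at −0.38 (0.115).

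Values above 0 in the gap-matched group did not pass. They were 0.71 ± 0.45 for Mrpl36 (limma adjusted p = 0.435), carried by gap-matched libraries 1 and 4, then 0.24 for Mrpl50 (0.484), 0.22 for Mrps18c (0.681) and 0.20 for Mrpl33 (0.622). Of the members that fell with exercise, Mrps10 stood at 16.6, 10.6, 16.3, 27.6 and 18.6 FPKM in the gap-matched libraries, around the sedentary values, with a difference of 0.12 (limma adjusted p = 0.783). Mrps9 differed by −0.27 (0.157), Mrps22 by −0.30 (0.288), Mrpl15 by −0.30 (0.244), Mrps26 by −0.13 (0.472) and Mrps5 by −0.12 (0.451). By subunit, the medians were −0.07 for the large subunit (37 of 49 below 0) and −0.13 for the small subunit (22 of 26 below 0).

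Exercised and gap-matched livers were compared directly to ask how far the first 2 comparisons differ. Mrps10 was the member that fell (1.32%, beside 0.900% of tested genes, 0.214% lower and 0.687% higher). Its exercised mean of 8.76 ± 1.64 FPKM stood against 17.9 ± 6.17 in the gap-matched group, a log2 difference of −0.91 ± 0.18 (limma adjusted p = 0.0360). The groups overlapped, since exercised library 3 at 11.7 FPKM lay above gap-matched library 2 at 10.6. The call was kept in 4 of 10 fits without 1 library, with adjusted p-values from 0.00966 to 0.0887. It ended without exercised library 1, 2 or 4 or gap-matched library 3, 4 or 5, and 0 members then passed. None of the other members that had fallen in 1 of the comparisons with the sedentary group passed here: Mrps22 differed by −0.29 (limma adjusted p = 0.334), Mrps5 by −0.21 (0.220), Mrps26 by −0.20 (0.280), Mrpl15 by −0.18 (0.522), Mrps9 by −0.14 (0.503), Mrps11 by 0.01 (0.958) and Mrps2 by 0.14 (0.534).

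Of all members, 50 were lower in the exercised than in the gap-matched group (65.8%, against 42.2% of tested genes), with a median of −0.08 beside 0.04. At an unadjusted p under 0.05, 7 were lower (9.21%, against 5.28%) and 3 higher (3.95%, against 11.2%). Lower groups without overlap were seen for mrpl11 and Mrps5 (2.63%, against 1.04%), and higher ones for 0 members, against 2.27%. Mrpl41, a large-subunit protein specific to mitochondria, stood at 65.4 ± 14.6 FPKM in the exercised and 88.4 ± 9.90 in the gap-matched group (−0.45 ± 0.14, limma adjusted p = 0.134). Mrpl36 differed by −0.51 (0.596) and Mrpl1 by −0.40 (0.392). The highest values were 0.25 for Mrpl28 (limma adjusted p = 0.214), 0.24 for Mrpl3 (0.199), 0.21 for mrpl9 (0.415) and 0.19 for Mrpl34 (0.280). Under the same-sum scaling 44 members were below 0 and 0 passed, with the median of all genes at 0.08, whereas 59 were below 0 with the median of ratios and 57 with quantiles.

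The head-to-head neighbours Mrpl46 and Mrps11 did not have the same pattern of values. Mrpl46, a protein of the central protuberance, gave 28.1, 31.6, 23.7, 30.03 and 33.0 FPKM in the sedentary, 24.8, 19.3, 23.1, 17.6 and 27.8 in the exercised and 26.7, 31.1, 23.02, 28.9 and 32.0 in the gap-matched libraries. Its differences from the sedentary group were −0.37 with exercise (limma adjusted p = 0.0987) and −0.05 with the gap-matched diet (0.894). Mrps11 differed by −0.34 and −0.35. The difference between the 2 genes was not tested. Of the 8 members that passed in any comparison, 6 had a promoter window, and 2 of these, Mrps10 and Mrps26, held any of the marked motifs.

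Summed over the 76 members, the transcripts came to 3725 ± 287 FPKM in the sedentary, 3322 ± 443 in the exercised and 3511 ± 234 in the gap-matched livers. The exercised libraries gave 3067, 2960, 3635, 3002 and 3945 FPKM, and libraries 3 and 5 lay inside the sedentary range of 3312 to 4105. As a share of all FPKM the sums were 0.493% ± 0.044, 0.430% ± 0.027 and 0.441% ± 0.018. Libraries within a group were high or low for many members at once. Sedentary library 3 held the lowest sedentary value of 44 members and exercised library 5 the highest exercised value of 43. The median deviation of the members from their group mean was −0.15 and 0.17 on the log2 scale in these libraries, against −0.03 and −0.01 for all tested genes.

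**Figure D5:**
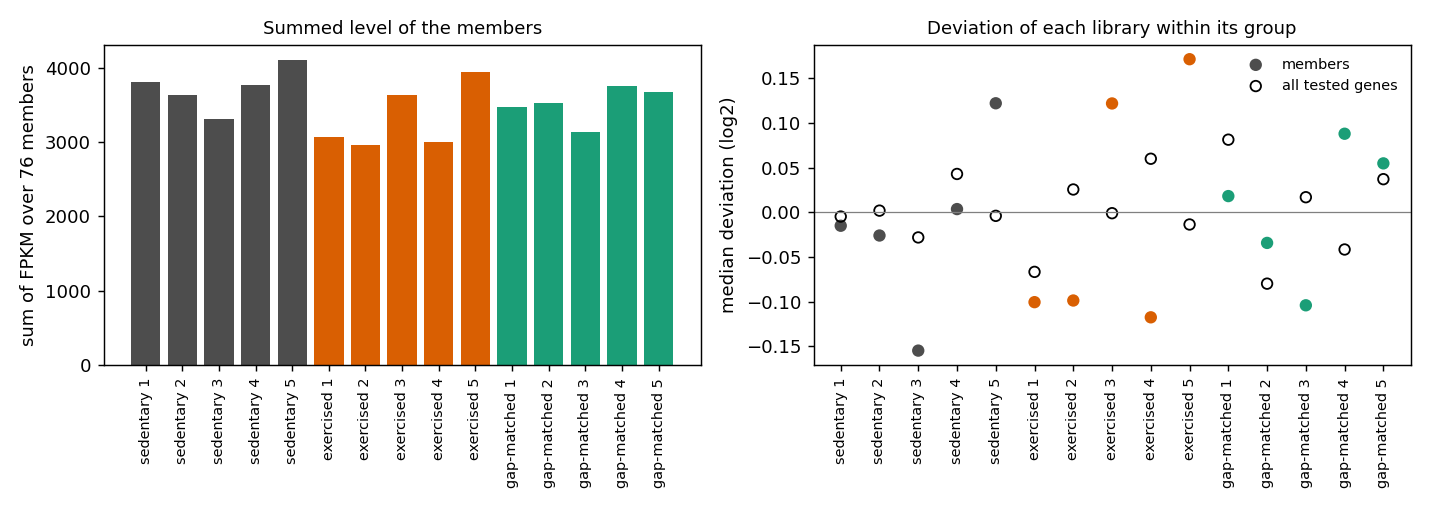
Left, sum of FPKM over the 76 members in each library; right, median deviation of each library from its group mean (log2) for the members (filled) and for all tested genes (open). Exercised libraries 3 and 5 stand at 3635 and 3945 FPKM, above the other exercised libraries at 2960 to 3067.

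Other genes of mitochondrial translation were compared from a list of 49 symbols of factors, tRNA and assembly genes, of which 40 were tested. Some of the 49 are an older and a newer name of the same gene, such as Mterfd1 and Mterf3. In the exercised livers 1 of the 40 fell and 0 rose, beside 3.26% of all tested genes lower and 2.51% higher, and the median was −0.06 beside 0.01. This was Tbrg4, an RNA-binding protein of mitochondria, at 10.9, 11.1, 11.1, 11.8 and 10.1 FPKM in the sedentary and 7.75, 9.10, 9.51, 8.49 and 7.83 in the exercised libraries (−0.33 ± 0.09, limma adjusted p = 0.0426). In the gap-matched livers 3 of the 40 fell and 0 rose, beside 2.23% of all tested genes lower and 0.820% higher, and the median was −0.11 beside −0.03. Gfm1, the elongation factor that moves the ribosome along the messenger RNA, fell from 45.8 ± 2.78 to 34.4 ± 2.76 FPKM without overlap (−0.40 ± 0.08, limma adjusted p = 0.0135). C1qbp, a matrix protein tied to mitochondrial translation, fell from 109 ± 4.10 to 88.3 ± 6.82 FPKM (limma adjusted p = 0.0383), and Tbrg4 fell to 8.43 ± 1.09 FPKM (0.0461). Exercised against gap-matched, 0 of the 40 passed and the median was 0.06 beside 0.04 over all tested genes. At an unadjusted p under 0.05, 3 of the 40 were lower and 5 higher, beside 5.28% of all tested genes lower and 11.2% higher. The smallest p-values were those of Tufm, the elongation factor that delivers the tRNA, with a difference of 0.37 (limma adjusted p = 0.148), and Gtpbp10, an assembly factor of the large subunit, with −0.36 (0.153). Without 1 library of the groups compared, the call of Gfm1 was kept in 10 of 10 fits, that of C1qbp in 2 and that of Tbrg4 in 1 in each comparison. Of the 10 other settings, the call of Gfm1 was kept in 10, that of C1qbp in 6, and that of Tbrg4 in 7 with exercise and 5 gap-matched. The 6 ribosomal proteins with other symbols had 0 passing in any comparison and medians of −0.14 with exercise, −0.03 gap-matched and −0.21 between those groups.

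Of 16 tested regulators of mitochondrial DNA and of nuclear genes for mitochondria, 2 rose in the exercised livers and 0 fell, beside 2.51% of all tested genes higher and 3.26% lower. The median of the 16 was −0.02 beside 0.01, with 9 below 0 and 7 above. At an unadjusted p under 0.05, 3 were lower and 2 higher, against 10.6% and 10.4% of tested genes. Esrra, the nuclear receptor ERR alpha, stood at 21.7, 17.99, 19.8, 19.3 and 20.9 FPKM in the sedentary and 25.04, 27.3, 30.2, 26.4 and 21.8 in the exercised libraries, which lay just above the sedentary range (0.37 ± 0.09, limma adjusted p = 0.0199). It was also higher than in the gap-matched group, by 0.46 ± 0.09 (0.0267). The call against the sedentary group ended without sedentary library 2 (limma adjusted p = 0.0620), under the same-sum scaling (0.0758), with only the compared groups (0.0517) and with the replicate block (0.0525). That against the gap-matched group ended in the same 3 settings (limma adjusted p = 0.0531, 0.0744 and 0.0755) and was kept in 5 of 10 fits without 1 library (up to 0.0730). Peo1, the Twinkle helicase that unwinds mitochondrial DNA, rose from 9.34 ± 1.196 to 12.9 ± 1.18 FPKM without overlap (limma adjusted p = 0.0195), a call that ended without sedentary library 5 (0.0515) and under the same-sum scaling (0.0547). The transcripts of 2 factors whose motif letters were sought did not pass: Gabpa differed by −0.09 (limma adjusted p = 0.644) and Nrf1 by −0.21 (0.403). Yy1 was not on the list of regulators, and its transcript is not described here. The coactivators Ppargc1a, Ppargc1b and Pprc1 differed by −0.08 (0.8003), −0.39 (0.0988) and −0.40 (0.213), and Tfam, which packages mitochondrial DNA, by 0.07 (0.760). For Pprc1 the exercised libraries (1.64 to 3.48 FPKM) all lay below the sedentary ones (3.85 to 4.33). So did its gap-matched libraries (1.72 to 3.78 FPKM), with a difference of −0.41 (limma adjusted p = 0.245).

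Markers of other liver cells were set beside these values. Of the Kupffer cell list 8 genes were tested and 0 passed in any comparison, with a median difference of 0.31 in the exercised and 0.21 in the gap-matched livers. In the exercised livers 7 of the 8 were above 0, beside 5749 of the 11216 tested genes. At an unadjusted p under 0.05, 5 of the 8 were higher, against 10.4% of tested genes. Their summed level was 337 to 570 FPKM in the sedentary, 488 to 692 in the exercised and 461 to 684 in the gap-matched libraries, with Vsig4 listed at 0. Endothelial markers, 8 of 8 tested with 0 passing, had medians of 0.20 and 0.04 and sums of 71.8 to 110.1, 89.99 to 128 and 81.8 to 114 FPKM. Hepatocyte markers, 8 of 8 tested with 0 passing, had medians of 0.14 and 0.11. In the exercised livers all 8 endothelial and all 8 hepatocyte markers were above 0. At an unadjusted p under 0.05, 0 of the endothelial and 1 of the hepatocyte markers were higher. For stellate (7 tested), cholangiocyte (3), erythroid (3), lymphocyte (2) and neutrophil markers (2), 0 passed, and the exercised medians were −0.03, −0.36, −0.03, 0.08 and 0.19. Their gap-matched medians were 0.12, −0.29, 0.46, 0.27 and 0.60. Between the exercised and the gap-matched livers the medians were 0.06 for Kupffer cells, 0.17 for endothelial cells, 0.10 for hepatocytes and −0.20, 0.06, −0.50, −0.19 and −0.41 for these 5 lists. Of the 3 erythroid markers, 2 had an unadjusted p under 0.05 there, lower with exercise, against 5.28% of tested genes. The same held for 2 of the 7 stellate markers, while 1 of the 8 hepatocyte markers was higher, against 11.2% of tested genes. In the gap-matched livers 2 of the 3 erythroid markers were higher than in the sedentary ones at that threshold, against 5.75% of tested genes. So was 1 marker each of the hepatocyte, stellate and lymphocyte lists. The part of these cells in the members' differences was not tested.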

How the data were processed

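Liver RNA was measured by RNA-seq in 15 libraries, 3 groups of 5, and the deposited values were FPKM per Ensembl gene, made by the authors. Trimmomatic, Cufflinks and Rnor_5.0 are named in the submitters' processing notes. For the aligner, filters and strand setting, the sources used here give nothing. The table held 26407 entries; 2 repeated identifiers and 2 genes with a placeholder in place of a value (Alb, Slc27a2) were left out. Names are those of the table, where 5795 genes have none and 27 are calendar dates. Of 78 entries with a member symbol, the most abundant stood for each of 76 symbols.

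Values were analysed as log2(FPKM + 1), which understates differences of low genes, for the 11216 genes whose mean reached 1 FPKM. The 3 groups were fitted in 1 model with limma 3.58.1 (R 4.3.3), with a variance trend, two-sided tests and Benjamini-Hochberg adjustment over all tested genes; a gene passed under 0.05. The code was tested on simulated data. Python 3.11.15, pandas 2.3.3 and matplotlib 3.10.9 were used otherwise. FPKM hold no read totals, so no counting interval is given; reads shared with pseudogenes or overlapping genes could not be separated.

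The members and lists were chosen with earlier results of these data known. Members named are those that passed, the 4 highest and 4 lowest differences in each comparison, the 5 highest and 5 lowest levels, a panel of 9, and, chosen after their values were seen, mrpl11, Mrpl46 and the members without overlap. Of the other lists, genes that passed or had the smallest p are named; Gabpa, Nrf1, Tfam and the coactivators were chosen for their roles. Alternatives were 2 pseudocounts, 2 filters, 3 scalings, the compared groups alone, no variance trend, the replicate number as a block, and leaving out each library. Subunits and roles follow textbook knowledge of mammalian mitochondrial ribosomes.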

Additional observations from a re-analysis of the deposited data

Results flagged for a closer look

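In 111 groups of 5 libraries, 5 had 1 library far from the other 4 by Dixon's test, where chance gives about 1 in 20. Mrps10 stood at 11.7 FPKM in exercised library 3, against 7.77 to 8.26 in the other exercised libraries. Mrpl36 stood at 11.1 FPKM in exercised library 4, against 1.82 to 2.90. For mrpl9, sedentary library 3 was low at 25.1 FPKM, against 29.8 to 30.7. Mrpl44 was high in sedentary library 5 at 28.5 FPKM, against 24.2 to 25.1, and Mrpl47 in gap-matched library 5 at 8.70 FPKM, against 4.92 to 5.89.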

How the results depend on the processing

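Of the members that fell with exercise, Mrps10, Mrps9 and Mrps22 passed in all 10 settings other than leaving out a library, and Mrps11 in 2 of the 10. The number of members passing for exercised against sedentary was 3 with only the compared groups and 4 with the replicate block, and 0 to 11 without 1 library. For gap-matched against sedentary it was 0 with no filter, no variance trend or the replicate block, 2 with a filter at 5 FPKM and 5 with the same-sum scaling, and 0 to 2 without 1 library. For exercised against gap-matched it was 0 with no filter, the same-sum scaling, only the compared groups or the replicate block, and 0 to 2 without 1 library. The median member difference kept its sign in every setting, at −0.22 to −0.14, −0.14 to −0.06 and −0.12 to −0.05 without 1 library.

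Over all genes, 342 to 645 passed for exercised against sedentary without 1 library (648 with all). For gap-matched against sedentary (342), 201 passed with the replicate block and 147 to 357 without 1 library. For exercised against gap-matched (101), 53 passed with no filter, 34 with the same-sum scaling, 16 with only the compared groups, 20 with the replicate block and 18 to 131 without 1 library. The share of calls that were lower was 56.5%, 73.1% and 23.8% in the 3 comparisons, and 66.1%, 84.1% and 17.6% with the same-sum scaling, 53.7%, 59.7% and 40.7% with the median of ratios, and 51.6%, 59.7% and 36.6% with quantiles. Translation genes passing with exercise (1) were 2 with a filter at 5 FPKM, 0 with the same-sum scaling and 0 to 2 without 1 library, and gap-matched (3) 1 with quantiles, only the compared groups or the replicate block and 1 to 3 without 1 library.

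Some differences that had not passed changed sign. Without 1 library, Mrpl36 with exercise (0.20 with all libraries) ran from −0.18 to 0.35, Mrps18c from −0.28 to 0.11 and Mrpl44 from −0.044 to 0.021. Mrpl44 with quantiles was 0.0048 with exercise and 0.0051 gap-matched. For exercised against gap-matched, Mrpl45 was 0.0081 and Mrps30 0.0092 with the same-sum scaling, and −0.12 to 0.045 and −0.084 to 0.022 without 1 library. Mrpl44 was −0.015 with the median of ratios and −0.00027 with quantiles, and −0.013 to 0.075 without 1 library. Mrps12 was −0.035, −0.0063 and −0.059 to 0.068 in the same settings. The cause was not tested.

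Same-numbered libraries did not clearly deviate together, with correlations of −0.27 to 0.13, −0.08 to 0.19 and −0.23 to 0.08 in the 3 comparisons. These values gave no sign of a pairing by number but cannot exclude one, and the replicate block is kept as an alternative. Depth is unknown, which limits low members such as Mrpl36 most.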

Other observations

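Of 13 protein-coding transcripts of mitochondrial DNA, the products of the mitochondrial ribosome, 9 were in the table and all were listed at 0 in every library, so their level cannot be set beside that of the members. The symbol MRPL30 had 2 entries, with means of 60.9 and 19.5 FPKM, and RefSeq names 9 further copies or pseudogenes after it. A second entry for Mrpl36 was listed at 0 in every library. In this way, RefSeq's rat genes hold 43 entries named after 24 of the members.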
